A study of Mus musculus with 6 samples.

Results

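The 28 genes described here encode proteins of cholesterol synthesis, uptake and sterol sensing in the mouse liver. They were chosen by name for their role in the pathway from 55487 genes in the tables. The rule uses no measured value, but earlier results of these data were known when the choice was made. All 28 were found by symbol, and all 28 had enough reads to be tested. Poly(A) RNA sequencing was done on frozen liver from 6 male mice aged 8 weeks, 3 of each kind. WT mice were of the substrain BALB_cJ. SCADD mice were of the substrain BALB_cBYJ, which is deficient in short-chain acyl-CoA dehydrogenase. This enzyme of mitochondria opens the breakdown of short-chain fatty acids. All animals ate standard chow and lived in a 12 h light and 12 h dark cycle. The deficiency and the substrain coincide in these animals, so the enzyme defect and any other difference between the substrains cannot be told apart. The livers of each group are called biological replicates in the series' design text.

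Cholesterol is built from acetyl-CoA in the mevalonate pathway, which yields the isoprenoid farnesyl diphosphate. Squalene synthase joins farnesyl diphosphate units into squalene, and a further series of enzymes closes and trims the sterol rings. When membranes of the endoplasmic reticulum are poor in sterol, the escort protein SCAP carries the transcription factor SREBP2 to the Golgi, where it is cut and released to switch on the genes of synthesis and uptake. Sterol and the INSIG proteins hold SCAP back. In liver this loop adjusts synthesis to dietary cholesterol and to bile acid loss.

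Promoters of 5 of the genes are shown because the text below turns on how their transcripts moved together or apart. Hsd17b7 differed between the groups, Insig1, Hmgcs1 and Msmo1 were highest of the WT livers in WT replicate 3, and Sc5d was not. Each sequence holds the 250 bases before the RefSeq start site (GRCm38.p6), in the direction of transcription. Capitals mark CACNCCAC, a core of the sterol regulatory element, or CCAAT, the box bound by NF-Y, and their reverse complements GTGGNGTG and ATTGG. The windows lie at chr1:169969206-169969455 (-, Hsd17b7), chr5:28071162-28071411 (+, Insig1), chr13:119690101-119690350 (+, Hmgcs1), chr8:64733579-64733828 (-, Msmo1) and chr9:42264301-42264550 (-, Sc5d).
Hsd17b7: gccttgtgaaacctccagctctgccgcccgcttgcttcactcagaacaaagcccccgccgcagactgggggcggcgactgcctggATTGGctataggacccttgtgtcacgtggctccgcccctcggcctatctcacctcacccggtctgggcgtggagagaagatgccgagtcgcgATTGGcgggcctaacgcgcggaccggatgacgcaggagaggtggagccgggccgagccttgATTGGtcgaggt
Insig1: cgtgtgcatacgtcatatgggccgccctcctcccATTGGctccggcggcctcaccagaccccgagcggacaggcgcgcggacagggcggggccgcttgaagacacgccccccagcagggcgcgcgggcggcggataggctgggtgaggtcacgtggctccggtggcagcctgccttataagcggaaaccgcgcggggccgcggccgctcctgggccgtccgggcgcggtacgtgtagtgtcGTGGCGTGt
Hmgcs1: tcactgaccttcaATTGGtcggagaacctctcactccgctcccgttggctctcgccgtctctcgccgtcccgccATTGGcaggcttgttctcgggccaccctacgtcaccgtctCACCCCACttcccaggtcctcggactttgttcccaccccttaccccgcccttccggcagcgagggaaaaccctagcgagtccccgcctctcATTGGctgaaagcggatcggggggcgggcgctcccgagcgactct
Msmo1: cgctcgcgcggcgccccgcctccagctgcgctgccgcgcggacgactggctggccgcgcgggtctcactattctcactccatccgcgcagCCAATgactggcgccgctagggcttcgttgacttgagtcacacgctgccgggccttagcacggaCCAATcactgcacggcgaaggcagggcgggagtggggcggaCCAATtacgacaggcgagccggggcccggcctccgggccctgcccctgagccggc
Sc5d: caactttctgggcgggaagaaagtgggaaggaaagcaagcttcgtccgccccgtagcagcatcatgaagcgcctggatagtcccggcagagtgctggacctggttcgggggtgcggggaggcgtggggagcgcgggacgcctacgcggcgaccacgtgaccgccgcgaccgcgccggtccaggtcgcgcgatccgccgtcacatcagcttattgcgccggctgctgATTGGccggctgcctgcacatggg

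RefSeq windows of 300 bases, 250 before and 50 after a start site, were at hand for 22 of the 28 genes, 28 windows in all. CCAAT or its reverse occurred in 20 of these 28 windows (71.4%), against 37.4% of all 32851 windows in the table and 37.5% of the 12494 windows of tested genes. In the 150 bases just before the start the shares were 67.9% for the sterol genes and 24.5% for all windows. CACNCCAC or its reverse was found in 3 of 28 windows (10.7%), those of Acat2, Hmgcs1 and Insig1, against 6.24% of all windows. Hmgcs1 and Insig1 held both motifs. In the windows of 300 bases, Hmgcs1 held CCAAT or its reverse at 4 places, Msmo1 and Hsd17b7 at 3 each, and Insig1 and Sc5d at 1 each. Of genes not shown, Cyp51 had 1 and Ggps1 had 3. The number of places was not tested against transcript levels. These are matches of letters and were not tested as binding sites.

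Transcript levels differed widely between genes along the pathway. In TPM, a level per transcript length, Insig2 stood far above all other members. It measured 580 ± 56.9 TPM in WT and 593 ± 208 TPM in SCADD livers (SD, n = 3 each). Insig1, which encodes the other INSIG protein, measured 44.7 ± 18.9 TPM in WT and 41.4 ± 16.8 TPM in SCADD livers. The ratio of Insig2 to Insig1 ranged from 5.81 in SCADD replicate 2 to 24.3 in WT replicate 1. By mean, the most abundant enzyme transcript was Sc5d, which introduces the C5 double bond late in the sterol branch, at 65.2 ± 7.29 TPM in WT livers. Msmo1 at 39.4 ± 23.7, Ebp at 38.1 ± 1.34 and Tm7sf2 at 32.6 ± 2.80 TPM followed in WT livers, and their ranges overlapped. The Msmo1 mean rests on WT replicate 3, at 66.5 TPM above Sc5d in that liver (57.7 TPM), while the other WT livers had 29.0 and 22.7 TPM, below Ebp and Tm7sf2. Near the low end in WT livers were Sqle, the epoxidase that commits squalene to sterols, at 3.21 ± 2.56 TPM, and Nsdhl at 2.46 ± 0.618 TPM. Lss, which closes the rings, was at 2.47 ± 1.17 TPM, and Mylip, among the regulatory genes, at 2.23 ± 0.108 TPM. Mvd, the decarboxylase that ends the mevalonate steps, was lowest at 1.33 ± 0.546 TPM. Srebf2, which encodes SREBP2, was itself a low transcript at 5.27 ± 0.571 TPM in WT and 5.23 ± 1.09 TPM in SCADD livers.

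**Figure D1:**
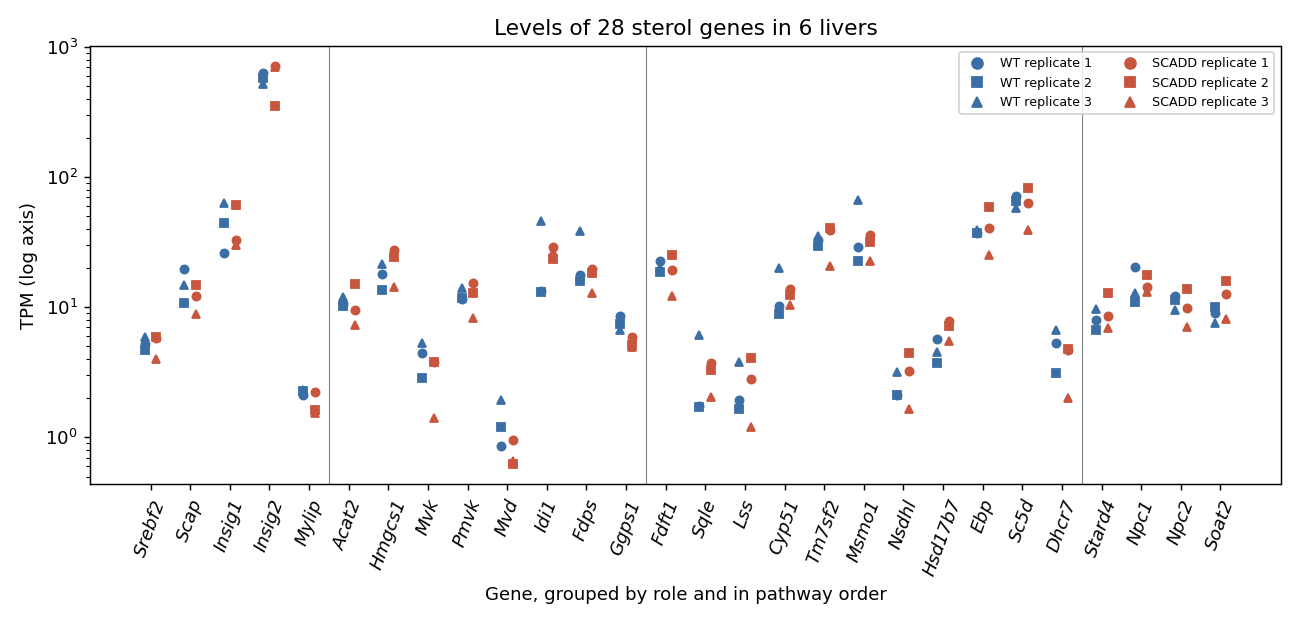
TPM of the 28 genes on a log axis, one point per library (blue for WT, red for SCADD, with circle, square and triangle for replicates 1, 2 and 3); vertical lines separate regulators, mevalonate enzymes, sterol enzymes and genes of sterol movement. Insig2 lies above all others, Mvd lies lowest, and the WT replicate 3 triangle stands above the other WT points for Idi1, Fdps, Sqle, Cyp51 and Msmo1.

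Reads in genes totalled 23991104 to 27148756 in WT and 16948986 to 23912744 in SCADD libraries. Unmapped reads made up 13.6% to 16.4% of WT and 25.1% to 36.6% of SCADD libraries, highest in SCADD replicate 3, which also had the lowest total. Acads, which encodes the dehydrogenase, measured 185, 166 and 196 CPM (read counts relative to library size after TMM scaling) in WT and 99.3, 104 and 96.96 CPM in SCADD livers, lower in 3 of 3. Transcripts of major urinary proteins took 3.23% to 4.16% of all TPM in WT and 7.37% to 14.8% in SCADD livers. TPM sum to the same total in each library, so the CPM, scaled by TMM, carry the comparison of groups.

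The synthesis genes as a set did not separate the groups. Of the 28 genes 1 rose in SCADD livers, and 0 fell, when edgeR's quasi-likelihood p, adjusted over all genes, had to be under 0.05. That is 3.57% of the members, against 7.02% of the 13498 genes tested, of which 4.22% were higher and 2.8% lower. DESeq2 and limma-voom each also called 1 gene higher and 0 lower. At an unadjusted p under 0.05 there were 3 members, Hsd17b7 and Soat2 on the higher side and Fdps on the lower, against 3058 of the 13498 tested genes. Among the 28 log2 fold changes 11 lay above zero and 17 below, with a median of -0.037 beside -0.00078 over all tested genes. The groups did not overlap for 3 members, which is 10.7% of them, against 28% of tested genes. Summed over the 19 enzymes of the pathway, the level was 555, 526 and 756 CPM in WT and 649.5, 657 and 546 CPM in SCADD livers. That is 612 ± 125 CPM against 618 ± 62.1 CPM (SD, n = 3 each), and the groups overlapped. In bulk liver RNA, fewer cells of a type and less RNA per cell cannot be told apart.

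**Figure D2:**
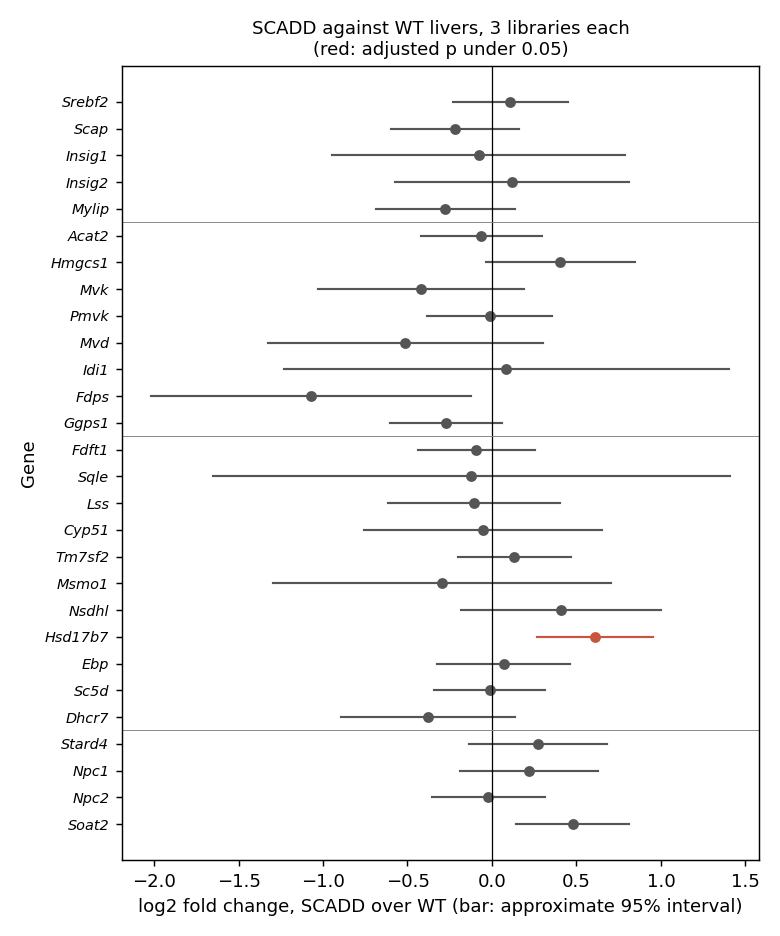
Log2 fold change of each gene in SCADD over WT livers (3 libraries each) with its approximate 95% interval from the edgeR fit; red marks an adjusted p under 0.05. Only Hsd17b7 is red, and the intervals of Sqle (-1.65 to 1.41) and Idi1 (-1.23 to 1.40) are the widest.

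Hsd17b7 was the member that rose. It encodes a reductase that completes removal of the C4 methyl groups in the sterol branch and that can also reduce estrone. The gene (ENSMUSG00000026675) lies on the minus strand of chromosome 1, from 169949535 to 169969241 in GRCm38. Its level was 22.5, 15.7 and 18.8 CPM in the WT livers, in order of replicate number, and 30.9, 26.0 and 30.2 CPM in the SCADD livers. Every SCADD liver was above every WT liver. The log2 fold change was 0.61 (SE 0.15, approximate 95% interval 0.27 to 0.95, edgeR adjusted p = 0.0397), or 1.53-fold. The call sat close to the threshold. It was lost without WT replicate 2 (log2 fold change 0.49, adjusted p = 0.161), without WT replicate 3 (0.60, adjusted p = 0.127) and without SCADD replicate 1 (0.55, adjusted p = 0.150). It was also lost under upper-quartile scaling (0.56, adjusted p = 0.0599), and it held in 13 of 17 alternatives. In TPM the groups overlapped for this gene, with 5.75, 3.76 and 4.5 TPM in WT and 7.80, 7.19 and 5.46 TPM in SCADD livers.

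The other 10 genes from squalene onward did not pass the test. Nsdhl, which acts just before Hsd17b7 in C4 demethylation, measured 4.20, 4.77 and 7.70 CPM in WT and 7.34, 9.44 and 5.27 CPM in SCADD livers (log2 fold change 0.41, SE 0.27, adjusted p = 0.411 by edgeR). The groups overlapped through WT replicate 3 and SCADD replicate 3. Msmo1, the C4 methyl oxidase of the same complex, measured 52.9, 45.4 and 136 CPM in WT and 71.9, 59.2 and 60.3 CPM in SCADD livers. WT replicate 3 was the highest of the 6 and the other WT livers the lowest. Its log2 fold change of -0.29 had a 95% interval from -1.29 to 0.71. Cyp51, the C14 demethylase, behaved alike in its ranks, with 41.5, 38.1 and 88.9 CPM in WT and 57.1, 48.6 and 56.8 CPM in SCADD livers. Sqle measured 4.20, 3.98 and 17.5 CPM in WT and 9.22, 7.55 and 6.76 CPM in SCADD livers. The SCADD livers thus lay between WT replicate 3 and the other WT livers, and the log2 fold change of -0.12 had an SE of 0.62.

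Fdft1, the squalene synthase at the branch point, measured 52.0 to 58.6 CPM in WT and 43.8 to 64.7 CPM in SCADD livers. Its log2 fold change was -0.09 (SE 0.16). Sc5d ranged from 122 to 163 CPM, and its 95% interval ran from -0.34 to 0.32 on the log2 scale. Ebp, the sterol isomerase, ranged from 45.9 to 77.7 CPM, with both ends set by SCADD livers. Tm7sf2, the C14 reductase, measured 42.7 to 53.6 CPM in WT and 42.4 to 55.8 CPM in SCADD livers (log2 fold change 0.13, SE 0.15). Lss measured 8.54 to 14.6 CPM in WT and 7.69 to 12.1 CPM in SCADD livers. Dhcr7, which makes cholesterol from its C7 double-bond precursor, measured 10.5, 7.91 and 15.02 CPM in WT and 10.2, 8.54 and 7.01 CPM in SCADD livers (log2 fold change -0.38, SE 0.23, adjusted p = 0.384). For these 6 genes the groups overlapped.

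None of the 8 genes from acetoacetyl-CoA to the isoprenoids passed the test, and 6 of the 8 log2 fold changes lay below zero. Hmgcs1, the cytosolic HMG-CoA synthase, measured 47.7, 41.8 and 65.0 CPM in WT and 84.3, 65.5 and 54.6 CPM in SCADD livers. SCADD replicate 3 lay within the WT range, and the log2 fold change was 0.41 (SE 0.20, edgeR adjusted p = 0.261). The kinase genes Mvk and Pmvk, which add phosphates to mevalonate, had log2 fold changes of -0.42 (SE 0.28) and -0.014 (SE 0.17). Mvd measured 1.27, 1.88 and 3.49 CPM in WT and 1.79, 1.18 and 1.67 CPM in SCADD livers, and its WT replicate 3 was the highest of the 6. Idi1, the isomerase of the C5 isoprenoid units, measured 8.47, 9.36 and 30.0 CPM in WT and 17.7, 13.0 and 20.2 CPM in SCADD livers. As for Sqle, the SCADD livers lay between WT replicate 3 and the other WT livers. Acat2, the cytosolic thiolase that makes acetoacetyl-CoA, ranged from 13.4 to 19.7 CPM, and its log2 fold change of -0.06 had a 95% interval from -0.42 to 0.30.

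Fdps, the synthase of farnesyl diphosphate, and Ggps1, which extends it to geranylgeranyl diphosphate, were lower in SCADD livers without passing the test. Fdps measured 0.615, 1.40 and 1.99 CPM in WT and 0.693, 0.519 and 0.682 CPM in SCADD livers (log2 fold change -1.07, SE 0.43, edgeR adjusted p = 0.167). WT replicate 1 lay inside the SCADD range. The counts used leave out reads that fall in more than 1 gene or map to more than 1 place, and a longer gene model on the same strand, Gm43738, overlaps Fdps. RSEM, which divides shared reads, assigned Fdps 21.2 times as many reads. The part of that overlap in the gap was not tested. On those expected counts its log2 fold change was -0.47 (edgeR adjusted p = 0.508), and without WT replicate 1 the log2 fold change on the main counts was -1.43 (adjusted p = 0.0366). RSEM assigned Idi1, which has no such overlap on its strand, 3.98 times as many reads, with a log2 fold change of 0.18. Ggps1 measured 12.4, 13.4 and 12.7 CPM in WT and 11.2, 8.87 and 11.8 CPM in SCADD livers. Every SCADD liver was below every WT liver, and the log2 fold change was -0.27 (SE 0.15, edgeR adjusted p = 0.324). Ggps1 lies opposite Arid4b, Fdft1 opposite Ctsb, Cyp51 opposite Akap9 and Npc1 opposite Rmc1, and the counts used were those of each gene's own strand. Tm7sf2 overlaps Vps51 on the same strand, so its reads in the shared stretch were not counted.

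The sensing and regulatory genes overlapped between the groups without exception, and 0 of 5 passed the test. Srebf2 measured 17.6, 15.04 and 20.1 CPM in WT and 20.7, 20.0 and 16.2 CPM in SCADD livers (log2 fold change 0.11, SE 0.15, 95% interval -0.23 to 0.45). Scap had a log2 fold change of -0.22 (SE 0.17). Insig1, a transcript that SREBP itself induces, measured 48.4, 86.4 and 136 CPM in WT and 64.7, 112 and 79.96 CPM in SCADD livers. Its spread within WT was 2.80-fold and the group difference was -0.08 on the log2 scale (SE 0.37). Insig2 measured 953, 913 and 846 CPM in WT and 1070.5, 494 and 1379 CPM in SCADD livers. SCADD replicate 2 was the lowest and SCADD replicate 3 the highest of the 6, a 2.79-fold range within the group, while the WT livers differed by 1.13-fold. Mylip, the ubiquitin ligase that sends lipoprotein receptors to degradation, measured 7.27 ± 0.375 CPM in WT and 5.99 ± 1.27 CPM in SCADD livers (SD, n = 3 each; log2 fold change -0.28, SE 0.19, edgeR adjusted p = 0.427).

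Of the 4 genes for sterol movement and esterification, 0 passed the test, and 3 of the 4 log2 fold changes were above zero. Soat2, the hepatocyte enzyme that esterifies cholesterol for storage and secretion, measured 19.5, 23.9 and 19.0 CPM in WT and 28.5, 33.5 and 24.8 CPM in SCADD livers. Every SCADD liver was above every WT liver, SCADD replicate 3 only just above WT replicate 2. The log2 fold change was 0.48 (SE 0.15, edgeR adjusted p = 0.0886). Without SCADD replicate 3 the value was 0.58 (adjusted p = 0.0249). In TPM the groups overlapped for Soat2, with 9.02, 10.03 and 7.63 TPM in WT and 12.55, 15.92 and 8.12 TPM in SCADD livers. Stard4, a soluble sterol carrier, measured 37.7, 32.5 and 50.2 CPM in WT and 41.7, 58.4 and 45.6 CPM in SCADD livers (log2 fold change 0.27, SE 0.18). Npc1 and Npc2, which together export cholesterol from lysosomes, had log2 fold changes of 0.22 (SE 0.18) and -0.022 (SE 0.15). SCADD replicate 2 was the highest SCADD liver for all 4 genes, as for 37.6% of tested genes.

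**Figure D3:**
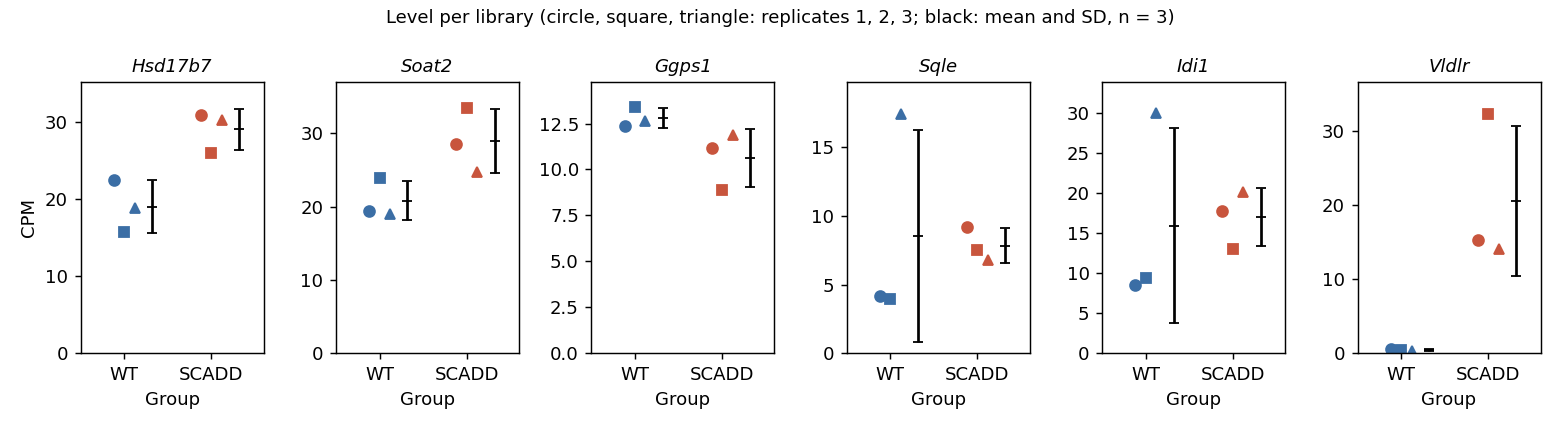
CPM of Hsd17b7, Soat2, Ggps1, Sqle, Idi1 and, outside the set, Vldlr in each library (circle, square and triangle for replicates 1, 2 and 3), with the mean and SD of each group (n = 3) in black. The groups do not overlap for Hsd17b7, Soat2, Ggps1 and Vldlr, and for Sqle and Idi1 WT replicate 3 lies above all other libraries.

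The widest differences among these genes were between livers of the same group. WT replicate 3 was at least 2-fold above the mean of the other WT livers for 6 of the 28 genes (21.4%), against 1.10% of all tested genes. The ratios were 4.27 for Sqle, 3.37 for Idi1, 2.78 for Msmo1, 2.24 for Cyp51, 2.22 for Mvd and 2.01 for Insig1, and Fdps followed at 1.98. For each of the other 5 libraries, measured the same way against the other livers of its group, 0 members were 2-fold higher. In the other direction, 5 members were at least 2-fold below that mean in WT replicate 1, against 1.99% of tested genes. There were 3 in WT replicate 2 (1.93% of tested genes) and 1, Insig2, in SCADD replicate 2 (3.75%). For WT replicates 1 and 2 the mean includes WT replicate 3, so these counts are not separate from its high values. RSEM's TPM gave ratios of 3.57 for Sqle, 3.48 for Idi1, 2.58 for Msmo1, 2.31 for Fdps, 2.12 for Lss and 2.09 for Cyp51, while Mvd at 1.86 and Insig1 at 1.81 were below 2-fold on that scale. WT replicate 3 was the highest WT liver for 18 of 28 genes (64.3%), against 32.5% of tested genes. It was highest for 14 of the 19 enzymes. This liver was seen to stand apart in these same values, so the counts are a description.

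Some genes of the same pathway were not higher in WT replicate 3. The ratio to the other WT livers was 0.886 for Sc5d, 0.986 for Hsd17b7, 0.981 for Ggps1, 1.02 for Ebp and 1.05 for Fdft1. Among the genes of sterol movement it was 0.878 for Soat2, 0.854 for Npc2 and 0.923 for Npc1. It was 1.43 for Stard4, for which WT replicate 3 was the highest WT liver. The ratio of Sc5d to Sqle in TPM, 41.5 and 38.1 in WT replicates 1 and 2, was 9.34 in WT replicate 3 and 17.0 to 24.9 in SCADD livers. Ranked by SD of log2 CPM among WT livers, Sqle stood at the 99.5th percentile of tested genes, Idi1 at the 98.9th, Msmo1 and Fdps at the 98.1st and Insig1 at the 97.0th. Over the 28 genes the median SD was 0.32 in WT and 0.25 in SCADD livers, against 0.18 and 0.24 over all tested genes.

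**Figure D4:**
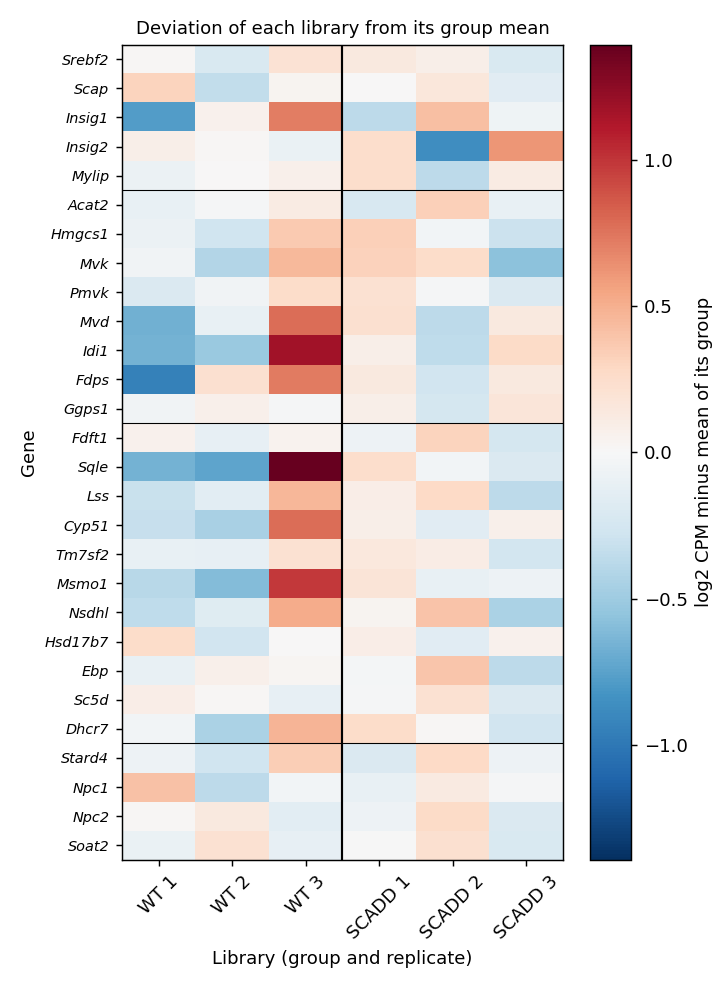
Log2 CPM of each gene in each library minus the mean of its group (rows are genes in pathway order, columns are libraries, and horizontal lines separate the roles). The WT 3 column is red for most enzymes, deepest for Sqle, Idi1 and Msmo1, and the row of Insig2 is blue in SCADD 2.

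Without WT replicate 3 the picture for single genes changed. Sqle was then called higher in SCADD livers, with a log2 fold change of 0.94 (edgeR adjusted p = 0.0461), and so was Idi1, at 0.93 (adjusted p = 0.0456). The call of Hsd17b7 was lost, so 2 of 28 genes were called higher, against 2.06% of the 13765 genes tested in that fit. Above zero lay 17 of 28 log2 fold changes, and the median over the genes moved from -0.037 to 0.15, beside 0.00042 over all tested genes. Msmo1 went from -0.29 to 0.38, Cyp51 from -0.05 to 0.44 and Insig1 from -0.08 to 0.34, and none of these passed the test. That fit rests on 2 WT livers. WT replicate 3 was the highest WT liver for most of these genes. Leaving it out raised their log2 fold changes by construction, so the calls, the count above zero and the median are a description. WT replicate 3 had 27148756 reads in genes, the most of the 6, and 13.7% unmapped reads, between the other WT libraries. It had the lowest WT level for 7 of 8 Kupffer cell markers, summed to 216 CPM against 246 and 293. The same held for 3 of 3 tested lymphocyte markers, against 31.5% of tested genes. WT replicate 1 had the highest WT level for 8 of 8 and 3 of 3 of these markers, against 36.0% of tested genes. Among stellate cell markers WT replicate 2 was lowest for 6 of 7. The part of these in the pattern was not tested.

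**Figure D5:**
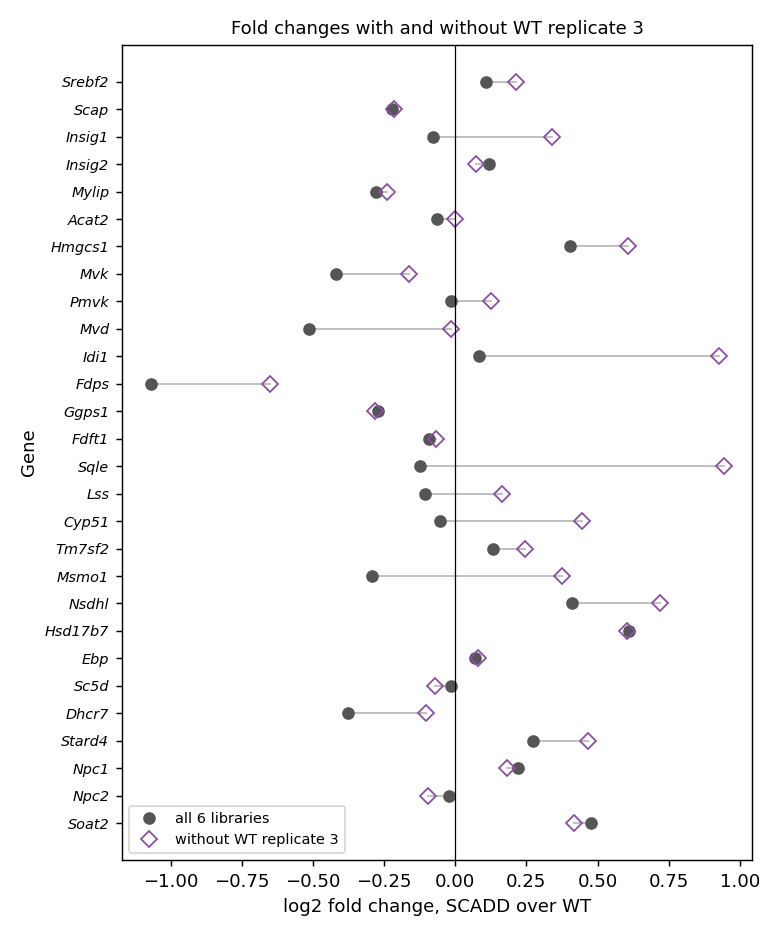
Log2 fold change of each gene in SCADD over WT livers with all 6 libraries (filled points) and without WT replicate 3 (open diamonds). Sqle, Idi1 and Msmo1 move most to the right, followed by Mvd and Cyp51, while Hsd17b7, Scap and Ggps1 hardly move.

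Genes around the pathway were counted in the same fit. Of 18 genes for processing of SREBP and for sterol-regulated degradation, 0 passed the test, with a median log2 fold change of 0.13. An unadjusted p under 0.05 was found for 2 of the 18, a smaller share than the 3058 of 13498 among all tested genes. The smallest p values belonged to Paqr3, which tethers SCAP and SREBP at the Golgi, at 0.72 (SE 0.21, edgeR adjusted p = 0.0619; 0.81 and 0.0343 without SCADD replicate 3), and Ube2g2, a ubiquitin-conjugating enzyme of that degradation, at -0.54 (SE 0.16, adjusted p = 0.0761). Of 15 genes of the isoprenoid branches to ubiquinone, dolichol and protein prenylation, 1 rose, which is 6.67% of the list beside 7.02% of tested genes called. This was Srd5a3, the reductase that makes dolichol, with 7.74, 9.14 and 8.33 CPM in WT and 13.7, 12.3 and 14.95 CPM in SCADD livers (log2 fold change 0.70, SE 0.15, adjusted p = 0.0168 by edgeR). The groups did not overlap for Srd5a3. Its call was lost without WT replicate 1 (adjusted p = 0.0697), WT replicate 2 (0.0504), WT replicate 3 (0.0741) or SCADD replicate 1 (0.0751).

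Of 16 genes for sterol trafficking and lipoprotein endocytosis, 1 rose (6.25% of the list), Vldlr, a receptor for triglyceride-rich lipoproteins. It measured 0.543, 0.437 and 0.263 CPM in WT, from 15, 10 and 7 reads, and 15.3, 32.3 and 14.1 CPM in SCADD livers, from 375, 684 and 227 reads. Every SCADD liver was far above every WT liver. The log2 fold change was 5.62 (SE 0.43, edgeR adjusted p = 0.000176), and Vldlr was called in 17 of 17 alternatives. Mylip, whose product acts on this receptor among others, did not pass the test, as given above.

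Acat2 has a near copy, Acat3, at 4.83 to 8.32 times its TPM, so reads could be divided between them. Acat3 measured 107, 113 and 113 CPM in WT and 62.1, 111 and 62.7 CPM in SCADD livers. SCADD replicate 2 lay inside the WT range and the other SCADD livers below it, and the difference was -0.50 on the log2 scale (SE 0.21, edgeR adjusted p = 0.191). Without SCADD replicate 2 it was -0.84 (adjusted p = 0.00408). Mmab, a cobalamin enzyme gene that neighbours Mvk, showed a log2 difference of 0.27 (SE 0.24, adjusted p = 0.570). Idi2 had 0 reads in every library.

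Markers of liver cell types were read beside these results. Their calls stand beside 4.22% of tested genes higher and 2.8% lower. The 7 hepatocyte markers summed to 117874 to 171339 CPM in WT and 103556 to 142824 CPM in SCADD livers, and 1 of 7, Ahsg, fell. Of 8 periportal markers 2 fell, with sums of 3858 to 4031 CPM in WT and 2843 to 4114 CPM in SCADD livers. An unadjusted edgeR p under 0.05 on the lower side was found for 6 of the 8, beside 1380 of 13498 tested genes. Every SCADD liver was below every WT liver for 5 of the 8, beside 1771 of 13498. The median log2 fold change of the 8 was -0.74, and 2 lay above zero. Of 7 tested pericentral markers 2 rose and 1 fell, and the sums over all 8 were 4776 to 5254 CPM in WT and 5324 to 6690 CPM in SCADD livers. Sinusoidal endothelial markers, of which 1 of 6 fell, summed to 205 to 209 CPM in WT and 128 to 198 CPM in SCADD livers. Cholangiocyte markers summed to 44.7 to 52.1 CPM in WT and 28.9 to 41.1 CPM in SCADD livers, with 0 of 3 tested genes called and all 6 in the sum. The groups' sums did not overlap for the pericentral, endothelial and cholangiocyte markers. Markers of Kupffer cells, at 216 to 293 CPM in WT and 166 to 293 CPM in SCADD livers, overlapped, with 0 of 8 called. Stellate cell markers, with 0 of 7 called, summed to 340 to 474 CPM in WT and 271 to 523 CPM in SCADD livers. Lymphocyte markers, with 0 of 3 tested genes called and all 7 in the sum, summed to 6.16 to 11.1 CPM in WT and 6.61 to 9.68 CPM in SCADD livers. No marker was at 0 in all libraries. The part of cell makeup in the values of Hsd17b7, Soat2, Srd5a3 and Vldlr was not tested.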

How the data were processed

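Livers of 6 mice were compared, 3 WT and 3 SCADD. Poly(A) RNA was sequenced from NEBNext libraries, per the labels' protocols. STAR 2.7.6a, RSEM 1.3.3 and GRCm38 are named in the submitters' processing notes, and the annotation release is not given in the sources used here. The authors deposited STAR read counts per gene, which are not normalised and hold reads mapped to 1 place in 1 gene. They also deposited RSEM expected counts, TPM and FPKM. TPM were used for levels between genes, and the deposited FPKM were not used.

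The stranded column used held 96.8% to 97.3% of stranded reads. Summary rows (unmapped, multi-mapped at 10.1% to 13.1%, no gene, ambiguous) were kept out of library sizes. Symbols and coordinates came from GENCODE M21 for 55141 of 55487 IDs. The test was the quasi-likelihood test of edgeR 4.0.16 with robust estimation (R 4.3.3), after TMM scaling and filterByExpr at a minimum count of 10, with Benjamini-Hochberg adjustment over 13498 genes and a threshold of 0.05. SE is the log2 fold change over the square root of F, and intervals are approximate. The biological coefficient of variation was 17.6%. Replicate pairs differed by more than counting noise (chi-square over degrees of freedom 37.1 to 130). The step was tested on simulated data.

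The 28 members and the other lists were chosen with earlier results of these data known. Every member is named, and of each other pathway list the called genes, or the 2 with the smallest p. Cell type markers are given by counts and sums. The list of mitochondrial enzymes is not reported here. Alternatives were other scalings (RLE, upper quartile, Mup genes left out), no filter or 1 CPM in 3 libraries, DESeq2 1.42.0, limma-voom (limma 3.58.1), no robust estimation, rounded RSEM expected counts, unstranded counts, a replicate block and leaving out each library. Start sites and promoter sequences are from RefSeq (GRCm38.p6).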

Additional observations from a re-analysis of the deposited data

How the results depend on the processing

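With 3 livers a group and differences near the threshold, single libraries decided most calls among these genes. Over all genes 947 were called, 1702 with no filter on low counts and 395 (without WT replicate 2) to 1590 (without SCADD replicate 3) when 1 library was left out. The number of members called higher, 1, was 0 under upper-quartile scaling, 2 with no filter (Soat2 added, adjusted p = 0.0476) and 0 to 2 when 1 library was left out. The number called lower, 0, was 1 with no filter (Fdps) and 0 to 1 when 1 library was left out. With no filter the counts were 1 for SREBP processing, 2 for trafficking and endocytosis and 1 for neighbouring genes. Leaving out 1 library gave 0 to 1, 1 to 2 and 0 to 1 for these, and 0 to 2 for the isoprenoid branches. The trafficking list had 2 calls without SCADD replicate 2 or 3, and the isoprenoid list 2 without SCADD replicate 2.

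The replicate block gave 1148 called genes and left the member counts at 1 higher and 0 lower. Deviations from the group means correlated by 0.060, 0.041 and 0.104 between same-numbered livers, and WT replicate 2 correlated best with SCADD replicate 1 (0.051), so the numbers were not taken as pairs. Signs turned for Insig1, Sqle and Cyp51 under limma-voom (0.0080, 0.23 and 0.058) and under the replicate block (0.012, 0.22 and 0.058), and for Pmvk on RSEM expected counts (0.0017). The causes were not tested.

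Leaving out 1 library turned the sign of 13 genes, none of them called with all 6. Their lowest and highest log2 fold changes were -0.39 and 0.34 for Insig1, -0.21 and 0.43 for Insig2, -0.26 and 0.034 for Acat2, -0.14 and 0.13 for Pmvk, and -0.23 and 0.93 for Idi1. They were -0.27 and 0.025 for Fdft1, -0.46 and 0.94 for Sqle, -0.27 and 0.16 for Lss, and -0.27 and 0.44 for Cyp51. They were -0.57 and 0.38 for Msmo1, -0.16 and 0.24 for Ebp, -0.13 and 0.082 for Sc5d, and -0.18 and 0.075 for Npc2. Fdps had too few reads for the filter of 1 CPM in 3 libraries and has no value there. Counted reads were few for Mvd in both groups and for Vldlr in WT livers. They were also few for Fdps in both groups, to which RSEM assigned 21.2 times as many reads.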
